A study of Mus musculus with 6 samples.

Results

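Transporters and pumps carry nutrients, bile acids, drugs, metals and ions across cell membranes, and 49 of the 2033 gene rows that the authors listed for mouse colon belonged to them. They were taken by name: protein-coding rows of the solute carrier families (Slc and Slco), of the ATP-binding cassette transporters (Abc) and of the ATP-driven pumps (Atp). The Slc26 anion exchangers, Slc51a, Slc10a2 and Atp12a, 7 rows in all, were set aside, as were 2 rows with other gene types. The values come from RNA sequencing of colon tissue from untreated control animals and from animals exposed over a long term to PFOA (perfluorooctanoic acid, an industrial fluorinated compound that persists in the body). Each group had 3 libraries. The labels speak of 6 frozen mice per group without tying mice to libraries, and they name no strain, dose, duration, age, sex or part of the colon. The p-values therefore measure the spread between libraries, and where along the colon each group was sampled cannot be told apart from PFOA exposure. In whole tissue, fewer cells of a type and less RNA per cell cannot be told apart either.

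Solute carriers move their substrates along gradients, coupled to another ion or in exchange for another ion. ABC transporters and P-type pumps spend ATP instead. In the colon epithelium, apical carriers face the gut lumen and take up salts, short-chain acids and remaining nutrients, and basolateral carriers pass them to the blood. Carriers of the mitochondrion, lysosome, Golgi and secretory vesicles serve the inside of the cell. Which carriers a gut cell makes depends on its place along the gut, since peptide, sugar and bile acid uptake belong mainly to the small intestine.

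The listed counts summed to between 1771120 and 2269892 per library, which is the total over the listed rows and not a sequencing depth. All 2033 rows were already a selection of genes that differ between these same groups, so passing a test is no evidence of an effect here, and nothing is known here of a transporter that has no row. GENCODE M21 names 506 protein-coding genes that fit the same name rule, of which 49, or 9.68%, had a row. The share differed between substrate classes, from 27.3% for carriers of neurotransmitters and creatine (3 of 11) and 26.1% for carriers of inorganic anions (6 of 23) to 1.92% for mitochondrial carriers (1 of 52). The whole table held 1220 protein-coding rows, and their share of all protein-coding genes was not computed. These shares therefore have no baseline, and those of small classes rest on few genes. The vacuolar proton pump (0 of 26) and the mitochondrial ATP synthase (0 of 17) had no row. Of the 4 listed rows of a fixed list of 9 colonocyte markers, Car1 was higher in PFOA and Car4, Slc26a3 and Saa1 lower, and each was counted in all 6 libraries.

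Of the 49 rows, 30 were higher and 19 lower in PFOA by mean scaled count, where 50.9% of all 2033 rows were higher. edgeR's quasi-likelihood test could be run on 47 of them, and 29 of these were higher and 18 lower at an adjusted p under 0.05. The background leaves nothing to read from passing, since 100% of all 1608 tested rows were called, 50.0% of them higher and 50.0% lower. Against that even split, 61.7% of the tested transporter and pump rows were higher, a description without a test. Their median log2 fold change was 1.13, beside -0.03 over all tested rows, where the selection leaves no values near 0. Changes were of ordinary size for this table. The median absolute log2 fold change was 1.80, beside 1.76 over all tested rows, and 38.3% exceeded 4-fold, beside 41.7%. The groups did not overlap in 44 of the 47 rows (98.0% of all tested rows), and the 3 that overlapped were Atp2b3, Abcc8 and Slc12a8. Fold values below are ratios of summed counts scaled by library, and log2 fold changes are edgeR estimates with their standard error (SE).

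**Figure D1:**
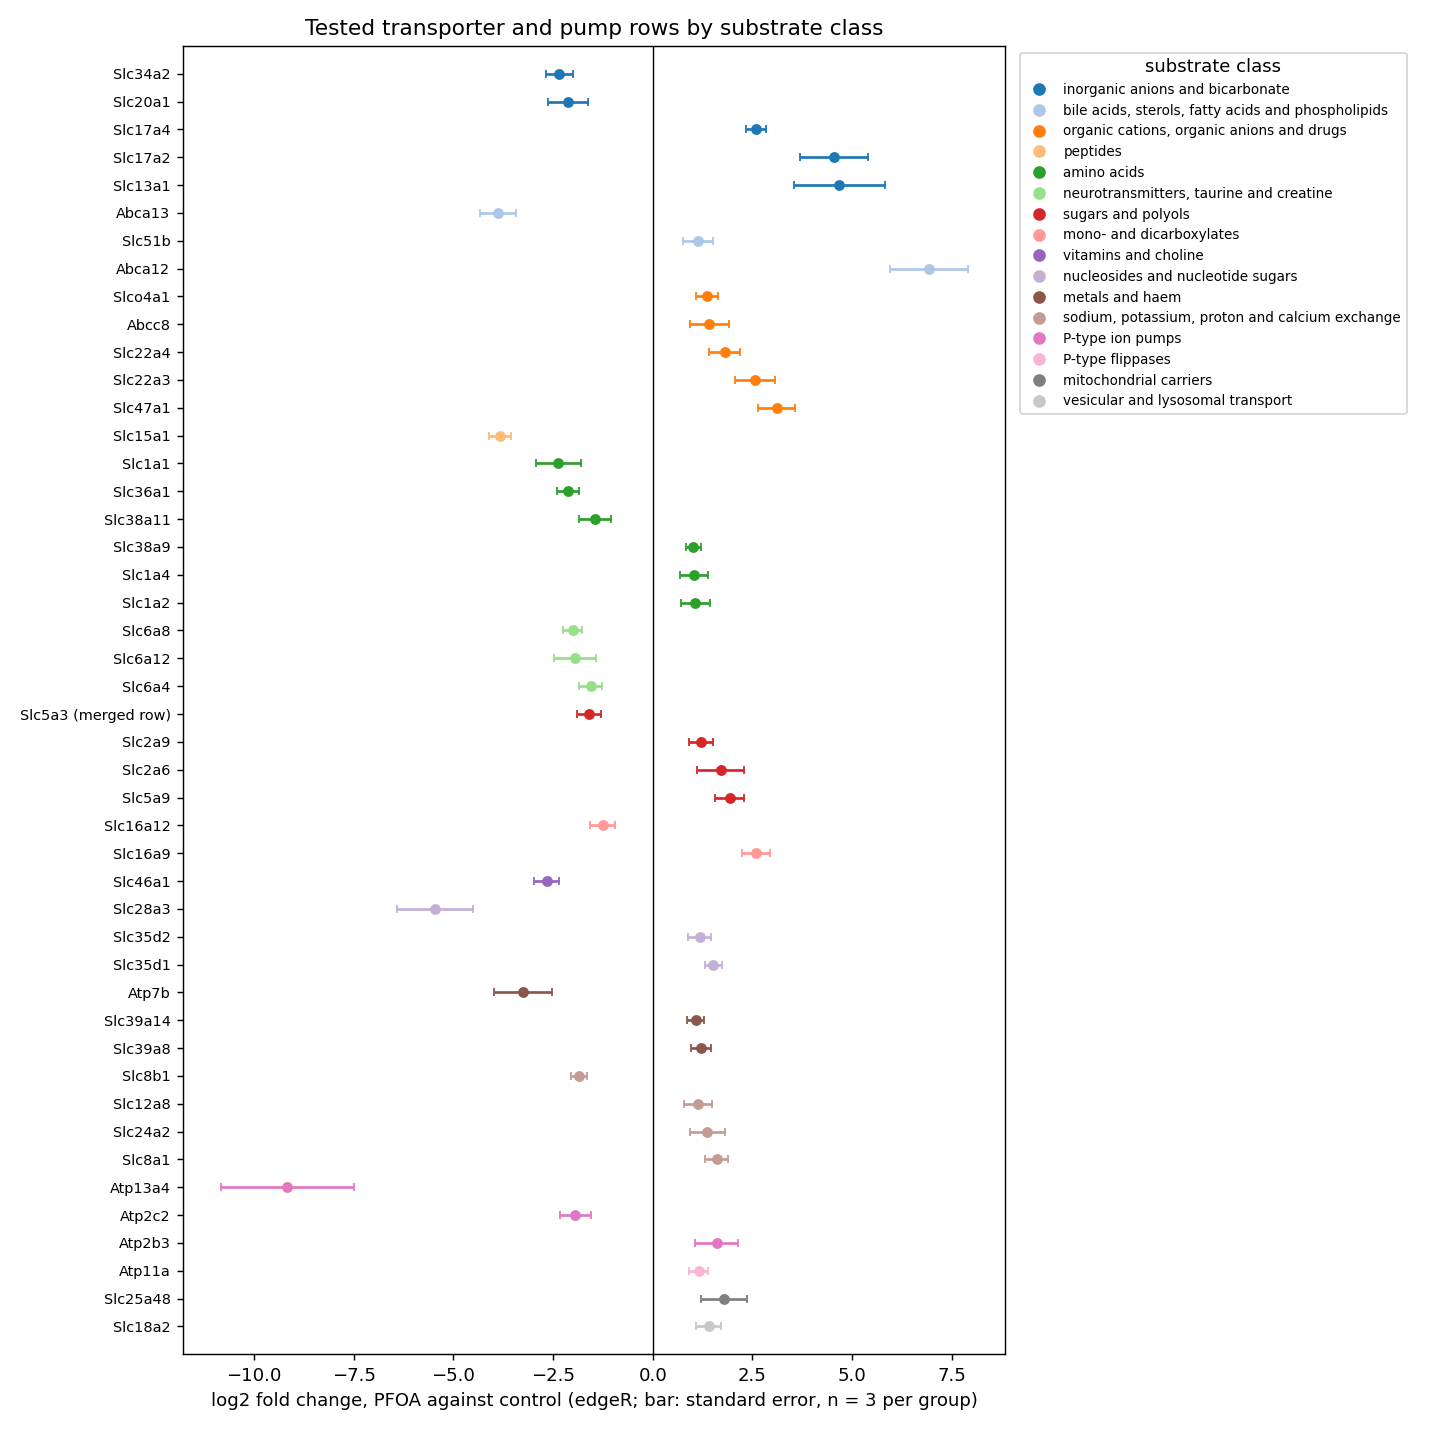
Log2 fold change of PFOA against control (x axis, edgeR estimate) for 46 of the 47 tested rows, ordered and coloured by substrate class, with bars for the standard error (n = 3 libraries per group). The 5 rows drawn for organic cations, organic anions and drugs all lie right of 0, and the 3 rows for neurotransmitters and creatine all lie left of it.

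Carriers of inorganic anions took opposite sides by family. Slc13a1, the apical sodium-sulfate cotransporter (chromosome 6, 24088283 to 24168092, mm10), had 3, 135 and 65 reads in the controls against 354, 2404 and 2451 with PFOA. It was 26.5-fold higher (log2 change 4.68, SE 1.15, n = 3, edgeR adjusted p = 0.00576). The lowest library of each group was replicate 1, and the groups did not overlap, as in 98.0% of all tested rows. Slc17a4, an intestinal organic anion and phosphate carrier, had 496, 656 and 512 reads in the controls against 3564, 2784 and 3341 with PFOA. That is 6.00-fold higher, with narrow spread in both groups (log2 change 2.59, SE 0.25, n = 3, edgeR adjusted p = 1.62e-04). Its neighbour Slc17a2, which lies 72484 bases away on chromosome 13, was also higher, with 0, 1 and 4 reads in the controls against 16, 72 and 35 with PFOA. The listed sodium-phosphate cotransporters of the Slc20 and Slc34 families went the other way. Slc20a1, the widely expressed phosphate carrier, had 5024, 15472 and 14383 reads in the controls against 3631, 2247 and 1644 with PFOA, 4.50-fold lower. Its row extends 16135 bases beyond the annotated gene, so other transcripts may be counted in it. Slc34a2, the brush border phosphate carrier of the gut, had 332, 297 and 448 reads in the controls against 37, 75 and 96 with PFOA, 5.02-fold lower (log2 change -2.34, SE 0.35, n = 3, edgeR adjusted p = 8.35e-04). Slc4a1, the chloride-bicarbonate exchanger of red blood cells, had 1, 5 and 6 reads in the controls against 0 in each PFOA library, too few for the test. The 4 tested rows of red blood cell markers, globins and Alas2, were also lower in PFOA. With Slc4a1, which is on the same list, the 5 rows summed to 563 to 1490 CPM in control and 123 to 212 in PFOA. CPM are counts scaled to the library totals over the tested rows after TMM adjustment. The part of red blood cells in the Slc4a1 counts was not tested. The log2 fold change of Slc13a1 was 5.38 with limma-voom, 3.99 with control replicate 1 dropped and 5.66 with control replicate 2 dropped. For Slc17a2, 4.54 became 3.89 when control replicate 1 was dropped, 5.92 when control replicate 3 was, and 3.94 when PFOA replicate 2 was.

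Lipid and bile acid carriers held the largest rise among the tested transporter rows. Abca12, which loads lipids into the lamellar granules of skin cells, lies on chromosome 1 at 71242276 to 71414910 (mm10). It had 66, 72 and 7 reads in the controls against 9901, 3584 and 3238 with PFOA, 119-fold higher (log2 change 6.92, SE 0.98, n = 3, edgeR adjusted p = 7.17e-04). PFOA replicate 1 was the highest library and control replicate 3 the lowest. Leaving them out in turn gave 6.06 and 6.26. Its relative Abca13, another large lipid transporter, had 111, 192 and 197 reads in the controls against 14, 12 and 6 with PFOA, 15.2-fold lower (log2 change -3.89, SE 0.45, n = 3, edgeR adjusted p = 3.46e-04). Slc51b encodes the beta subunit of the basolateral bile acid exporter. Its counts were 104, 263 and 182 in the controls against 463, 304 and 385 with PFOA, 2.16-fold higher and close between the groups. The call of Slc51b was lost when control replicate 1, control replicate 3 and PFOA replicate 1 were dropped one at a time, with edgeR adjusted p values of 0.0772, 0.0886 and 0.0569 (0.0124 to 0.0886 over 13 alternatives).

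The promoter sequences of the tested rows with the largest fold each way show what lies before the start of these genes. They are the 250 bases before the start site from RefSeq (GRCm38.p6), 5′ to 3′ on the gene's strand, for the 2 highest and the 2 lowest tested rows among the 35 members with a promoter entry (the start site nearest to the row's 5′ end). Capitals mark matches on either strand to any of 4 motifs. The homeobox core read by CDX and posterior HOX proteins was searched as TTTATNG. The half-site that many nuclear receptors bind was searched as AGGTCA. The core of sites for HNF4, a receptor of gut and liver, was searched as CAAAGTC. The core bound by GATA factors of the gut epithelium was searched as AGATAA. No match overlaps another in these sequences.
Abca12 (chr1:71414911-71415160, minus strand): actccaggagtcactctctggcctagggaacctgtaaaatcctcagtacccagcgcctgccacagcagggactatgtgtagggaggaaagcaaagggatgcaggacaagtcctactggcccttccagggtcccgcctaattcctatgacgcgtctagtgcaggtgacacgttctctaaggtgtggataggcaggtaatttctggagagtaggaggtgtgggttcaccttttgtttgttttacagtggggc
Slc17a2 (chr13:23806743-23806992, plus strand): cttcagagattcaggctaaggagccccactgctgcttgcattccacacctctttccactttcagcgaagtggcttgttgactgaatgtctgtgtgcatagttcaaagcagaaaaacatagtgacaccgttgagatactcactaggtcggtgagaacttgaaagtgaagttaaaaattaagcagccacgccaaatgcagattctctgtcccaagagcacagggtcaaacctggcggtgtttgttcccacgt
Atp13a4 (chr16:29544865-29545114, minus strand): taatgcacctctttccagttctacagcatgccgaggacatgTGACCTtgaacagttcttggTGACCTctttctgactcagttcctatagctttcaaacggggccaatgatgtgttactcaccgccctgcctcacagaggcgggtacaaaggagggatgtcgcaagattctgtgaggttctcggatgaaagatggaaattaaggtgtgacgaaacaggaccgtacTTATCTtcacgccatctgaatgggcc
Slc28a3 (chr13:58610878-58611127, minus strand): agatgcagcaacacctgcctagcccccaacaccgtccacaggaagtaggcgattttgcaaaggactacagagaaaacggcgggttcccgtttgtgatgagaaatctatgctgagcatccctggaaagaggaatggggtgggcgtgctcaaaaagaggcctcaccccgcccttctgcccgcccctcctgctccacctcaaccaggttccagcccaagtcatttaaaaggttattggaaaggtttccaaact
Atp13a4 alone among these 4 held matches, to the nuclear receptor half-site at 209 and 189 bases and to the GATA core at 26 bases before the start site. Over the 35 members, 17.1% held the half-site (13.8% of 27025 RefSeq genes with an entry), 14.3% the GATA core (10.3%), 8.57% the HNF4 core (3.80%) and 5.71% the homeobox core (10.2%). The RefSeq shares use the first listed start site of each gene, unlike those of the members. The member start site lay within 100 bases of the row start in 23 of the 35. The half-site was found in 3 of 20 higher and 3 of 15 lower members. Among these, the start sites used for Slc2a9 and Slc20a1 lay 19758 and 16144 bases from the row start. A match is a string of letters and no shown binding.

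All 6 rows for organic cations, organic anions and drugs were higher in PFOA, with a median log2 fold change of 1.88 and a range from 1.36 to 3.11. Slc47a1, the exchanger that extrudes organic cations against protons, had 4, 5 and 12 reads in the controls against 70, 53 and 53 with PFOA. It was 8.64-fold higher (log2 change 3.11, SE 0.46, n = 3, edgeR adjusted p = 8.14e-04). Slc22a3, an organic cation carrier on chromosome 17, had 13, 28 and 9 reads in the controls against 62, 132 and 101 with PFOA, 6.08-fold higher. Every PFOA library of Slc22a3 lay above every control library, where the groups did not overlap in 98.0% of all tested rows. Slc22a4, a carrier of ergothioneine and carnitine, was 3.45-fold higher, and Slco4a1, an organic anion and thyroid hormone carrier, was 2.56-fold higher with 62 to 76 counts in control and 153 to 189 in PFOA. Abcc8 belongs to the drug transporter family by name but is the sulfonylurea-binding subunit of a potassium channel. Its counts overlapped, at 92, 48 and 64 in the controls against 70, 248 and 226 with PFOA. The call of Abcc8 was lost when control replicate 2 or 3 was dropped (edgeR adjusted p = 0.0666 and 0.0764) and when PFOA replicate 2 or 3 was (edgeR adjusted p = 0.0569 and 0.0505). A replicate block also ended it (edgeR adjusted p = 0.0652, ranging over 0.0021 to 0.0764 in 13 alternatives).

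**Figure D2:**
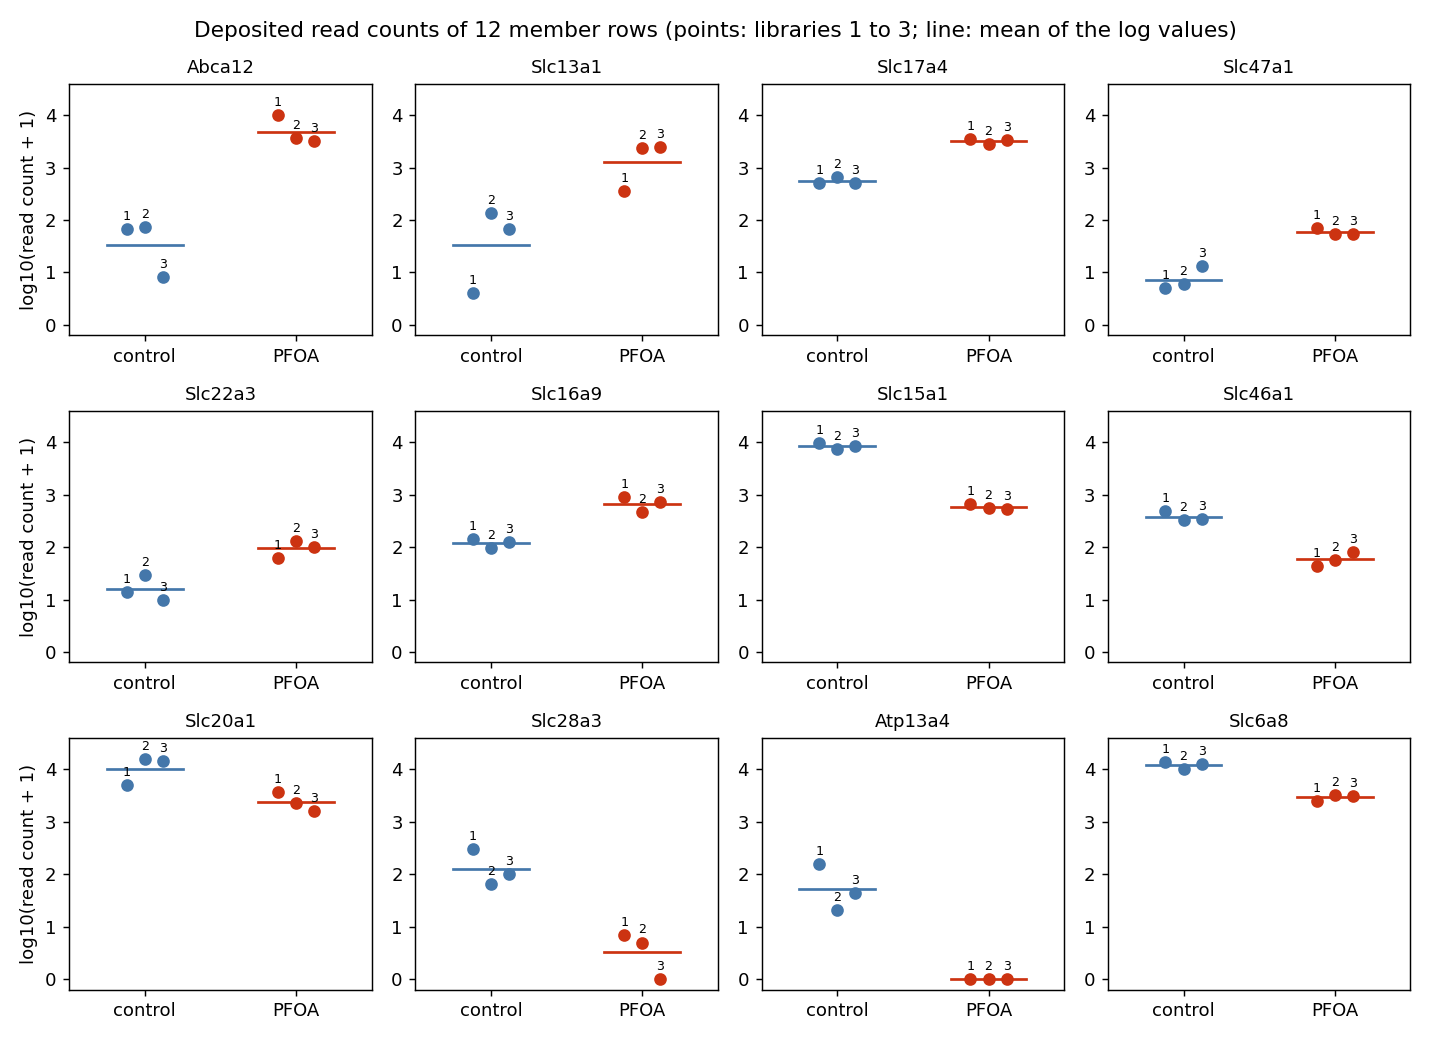
Deposited read counts of 12 transporter and pump rows on a log10(count + 1) axis, with a point per library (numbered by replicate) and a line at the mean of the log values. Slc15a1 falls from 7448 to 9825 counts in control to 531 to 670 in PFOA with little spread, while Slc13a1 and Abca12 are higher in PFOA with wide spread.

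Uptake carriers for peptides and folate were lower. Slc15a1, the apical carrier of di- and tripeptides (chromosome 14, 121459621 to 121505318), had 9825, 7448 and 8632 reads in the controls against 670, 552 and 531 with PFOA. It was 14.3-fold lower (log2 change -3.83, SE 0.27, n = 3, edgeR adjusted p = 5.46e-05), the smallest adjusted p among the 47 rows. Slc46a1, the proton-coupled folate carrier, had 481, 332 and 340 reads in the controls against 42, 57 and 80 with PFOA, 6.25-fold lower (log2 change -2.66, SE 0.31, n = 3, edgeR adjusted p = 3.68e-04). Both carriers are best known for uptake in the small intestine. A fixed list of 21 small intestinal enterocyte markers had 9 rows, of which 8 were higher in PFOA and Rbp2 was lower, at a summed 2470 to 3250 CPM in control and 8650 to 15600 in PFOA. The 5 rows of hindgut position genes, among them Hoxb13 and Hoxd13, were all lower, with Evx2 at 0 in PFOA, at a summed 3560 to 7190 CPM in control and 24.1 to 50.4 in PFOA. The part of gut position in the carrier values was not tested.

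Amino acid carriers were divided, 3 higher and 3 lower. Slc36a1, a proton-coupled carrier of small amino acids, had 6874, 3561 and 5496 reads in the controls against 1054, 1248 and 1238 with PFOA, 4.37-fold lower (log2 change -2.13, SE 0.28, n = 3, edgeR adjusted p = 5.31e-04). Slc1a1, the glutamate carrier of epithelia, had 770, 743 and 892 reads in the controls against 37, 271 and 155 with PFOA, 5.04-fold lower. PFOA replicate 1 was the lowest library of Slc1a1, and its log2 fold change was -2.37 in all libraries and -2.99 without PFOA replicate 2. Slc38a11, a less studied member of a neutral amino acid family, was 2.69-fold lower. Slc38a9, a lysosomal carrier that senses arginine, had 498, 488 and 554 reads in the controls against 866, 1132 and 1042 with PFOA, 2.04-fold higher. The glutamate carrier Slc1a2, known from glia, and the neutral amino acid carrier Slc1a4 were 2.10-fold and 2.07-fold higher. Gfap, the only listed row among 15 neuron and glia markers, was 3.11-fold higher, with 33 to 41 counts in control and 102 to 129 in PFOA, and its part in the Slc1a2 counts was not tested. Neither call was stable. That of Slc1a2 was lost when control replicate 2 or 3 was dropped (edgeR adjusted p = 0.0732 and 0.0919) and with library totals alone (edgeR adjusted p = 0.0659, ranging over 0.00626 to 0.0919 in 13 alternatives). For Slc1a4 it was lost when control replicate 1 or 3 was dropped (edgeR adjusted p = 0.0944 and 0.0967) and when PFOA replicate 2 or 3 was (edgeR adjusted p = 0.0545 and 0.0514, ranging over 0.0082 to 0.0967 in 13 alternatives).

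The 3 rows of the Slc6 family were all lower. Slc6a8, the creatine carrier, was abundant, with 13907, 10321 and 12569 reads in the controls against 2507, 3312 and 3065 with PFOA, 4.02-fold lower (log2 change -2.01, SE 0.23, n = 3, edgeR adjusted p = 3.14e-04). Slc6a4, the serotonin carrier that clears serotonin from the mucosa, had 736, 444 and 548 reads in the controls against 210, 194 and 161 with PFOA, 2.97-fold lower. Slc6a12, a betaine and GABA carrier, had 56, 31 and 35 reads in the controls against 3, 11 and 17 with PFOA. The vesicular monoamine carrier Slc18a2 went the other way, with 23, 33 and 38 reads in the controls against 63, 90 and 88 with PFOA, 2.64-fold higher. No library of one group reached the range of the other in these 4 rows, as in 98.0% of all tested rows. Of 9 enteroendocrine markers, genes of the hormone cells of the gut, 5 had a row. Insl5, Pyy and Gcg were 126-fold, 8.76-fold and 2.32-fold lower. Pcsk1 was 4.13-fold higher, and Nts, at 0 in every control library, was at least 288-fold higher. The list summed to 2880 to 3310 CPM in control and 632 to 949 in PFOA, and its part in the serotonin and monoamine carrier counts was not tested.

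Of the rows classed by name as sugar and polyol carriers, 3 of 4 were higher. Of those classed as mono- and dicarboxylate carriers, 1 of 2 was, where 50.9% of all rows were higher. Slc5a9, a sodium-coupled mannose and fructose carrier, had 69, 52 and 49 reads in the controls against 118, 292 and 233 with PFOA, 3.90-fold higher. Slc2a9, a urate carrier of the glucose carrier family, was 2.28-fold higher. Slc2a6, another member of that family, had 89, 69 and 73 reads in the controls against 454, 135 and 107 with PFOA. The excess of Slc2a6 lay in PFOA replicate 1. Without it the log2 fold change fell from 1.70 to 0.60 and the call was lost (edgeR adjusted p = 0.0751). The call of Slc2a6 was also lost when any control library was dropped (edgeR adjusted p = 0.0618, 0.0706 and 0.0809) and with limma-voom (adjusted p = 0.0583, ranging over 0.00924 to 0.0809 in 13 alternatives). A single row merges Slc5a3, the inositol carrier, with Mrps6, a mitochondrial ribosomal protein, and 3 predicted genes. It was 3.05-fold lower, which cannot be assigned to Slc5a3. Slc16a9, a carnitine carrier of the monocarboxylate family, had 144, 95 and 126 reads in the controls against 909, 458 and 739 with PFOA, 5.95-fold higher (log2 change 2.59, SE 0.35, n = 3, edgeR adjusted p = 6.06e-04). Its relative Slc16a12, a creatine carrier, was 2.42-fold lower, with 62 to 103 counts in control and 30 to 38 in PFOA.

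Nucleoside uptake and nucleotide sugar import differed in direction. Slc28a3, the sodium-coupled nucleoside carrier, had 306, 65 and 101 reads in the controls against 6, 4 and 0 with PFOA, 45.8-fold lower (log2 change -5.46, SE 0.96, n = 3, edgeR adjusted p = 0.00152). Its log2 fold change ranged from -6.27 without PFOA replicate 1 to -4.63 without control replicate 1, and was -4.85 without PFOA replicate 3. Slc35d1, which brings nucleotide sugars into the endoplasmic reticulum, had 1040, 1151 and 1116 reads in the controls against 2552, 3767 and 2915 with PFOA, 2.88-fold higher (log2 change 1.52, SE 0.21, n = 3, edgeR adjusted p = 5.99e-04). Slc35d2, its relative in the Golgi, was 2.26-fold higher.

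Metal carriers showed a rise of both listed Slc39 rows and a fall of a copper pump. Slc39a8 and Slc39a14 take up zinc, manganese and iron. Slc39a8 had 242, 358 and 325 reads in the controls against 518, 759 and 820 with PFOA, 2.34-fold higher. Slc39a14 had 1183, 1114 and 1073 reads in the controls against 1774, 2757 and 2436 with PFOA, 2.13-fold higher (log2 change 1.08, SE 0.21, n = 3, edgeR adjusted p = 0.00213). The manganese exporter Slc30a10 has a row that merges it with a pseudogene and was left out by gene type. That row had 79, 495 and 373 reads in the controls against 3790, 1621 and 1062 with PFOA, 7.05-fold higher. Atp7b, the copper-exporting pump, had 102, 29 and 61 reads in the controls against 8, 10 and 1 with PFOA, 9.80-fold lower (log2 change -3.26, SE 0.73, n = 3, edgeR adjusted p = 0.00387).

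Ion exchangers and pumps held the only tested member without a count in a group. Atp13a4, a P-type pump related to polyamine exporters of the lysosome, lies on chromosome 16 at 29395853 to 29544864. It had 154, 20 and 43 reads in the controls against 0 in each PFOA library, at least 70.2-fold lower against a floor of 3 counts over the PFOA group, which covers counting error only. Control replicate 1 held most of the Atp13a4 counts, and with it dropped the bound was at least 30.1-fold lower. Its fitted log2 fold change of -9.17 depends on how the zeros are treated, and was -8.01 without control replicate 1 and -6.64 with limma-voom. Atp2c2, the calcium and manganese pump of the secretory pathway, had 4279, 2571 and 2910 reads in the controls against 409, 927 and 1185 with PFOA, 3.76-fold lower (log2 change -1.94, SE 0.38, n = 3, edgeR adjusted p = 0.00233). Slc8b1, the sodium-calcium exchanger of mitochondria, had 2797, 2446 and 2703 reads in the controls against 642, 778 and 723 with PFOA, 3.60-fold lower (log2 change -1.85, SE 0.19, n = 3, edgeR adjusted p = 2.19e-04). Slc8a1, the sodium-calcium exchanger of the cell surface, known from muscle, had 7143, 11049 and 11973 reads in the controls against 23728, 34647 and 30398 with PFOA, 3.03-fold higher. Its row is a merged model of 170495 bases that extends 51278 bases beyond the annotated gene, so other transcripts may be counted in it. Both listed smooth muscle markers, Cnn1 and Synm, were lower in PFOA, by 2.12-fold and 2.32-fold, and their part in the Slc8a1 counts was not tested. Atp11a, which flips phospholipids to the inner membrane leaflet, was 2.20-fold higher, with 2290 to 2696 counts in control and 4824 to 6162 in PFOA.

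Several rows of this class and of the mitochondrial carriers kept their direction but not their call. Slc12a8, of the cation-chloride cotransporter family, had 1363, 1866 and 1381 reads in the controls against 1622, 4344 and 4011 with PFOA. With control replicate 1 or 3 dropped, its edgeR adjusted p was 0.0727 and 0.0826 (0.00109 to 0.0826 over 13 alternatives). Atp2b3, a plasma membrane calcium pump best known from neurons, had 13, 32 and 17 reads in the controls against 24, 79 and 84 with PFOA. It lost its call when control replicate 1 or 3 was dropped (edgeR adjusted p = 0.0921 and 0.0924) and when PFOA replicate 2 or 3 was (edgeR adjusted p = 0.0521 and 0.0552, ranging over 0.00404 to 0.0924 in 13 alternatives). Slc24a2, a potassium-dependent sodium-calcium exchanger, had 7 to 17 counts in control and 21 to 39 in PFOA. Its edgeR adjusted p reached 0.0772 with control replicate 1 dropped and 0.0512 with PFOA replicate 1 dropped (0.0121 to 0.0772 over 13 alternatives). Slc25a48, a mitochondrial carrier, had 4 to 12 counts in control and 14 to 39 in PFOA. The call of Slc25a48 was lost when control replicate 1, control replicate 3 and PFOA replicate 1 were dropped in turn (edgeR adjusted p = 0.0674, 0.079 and 0.0576, ranging over 0.00807 to 0.079 in 13 alternatives). Slc9a4, a sodium-proton exchanger, had 1, 1 and 4 reads in the controls against 8, 16 and 12 with PFOA and was too low for the test.

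**Figure D3:**
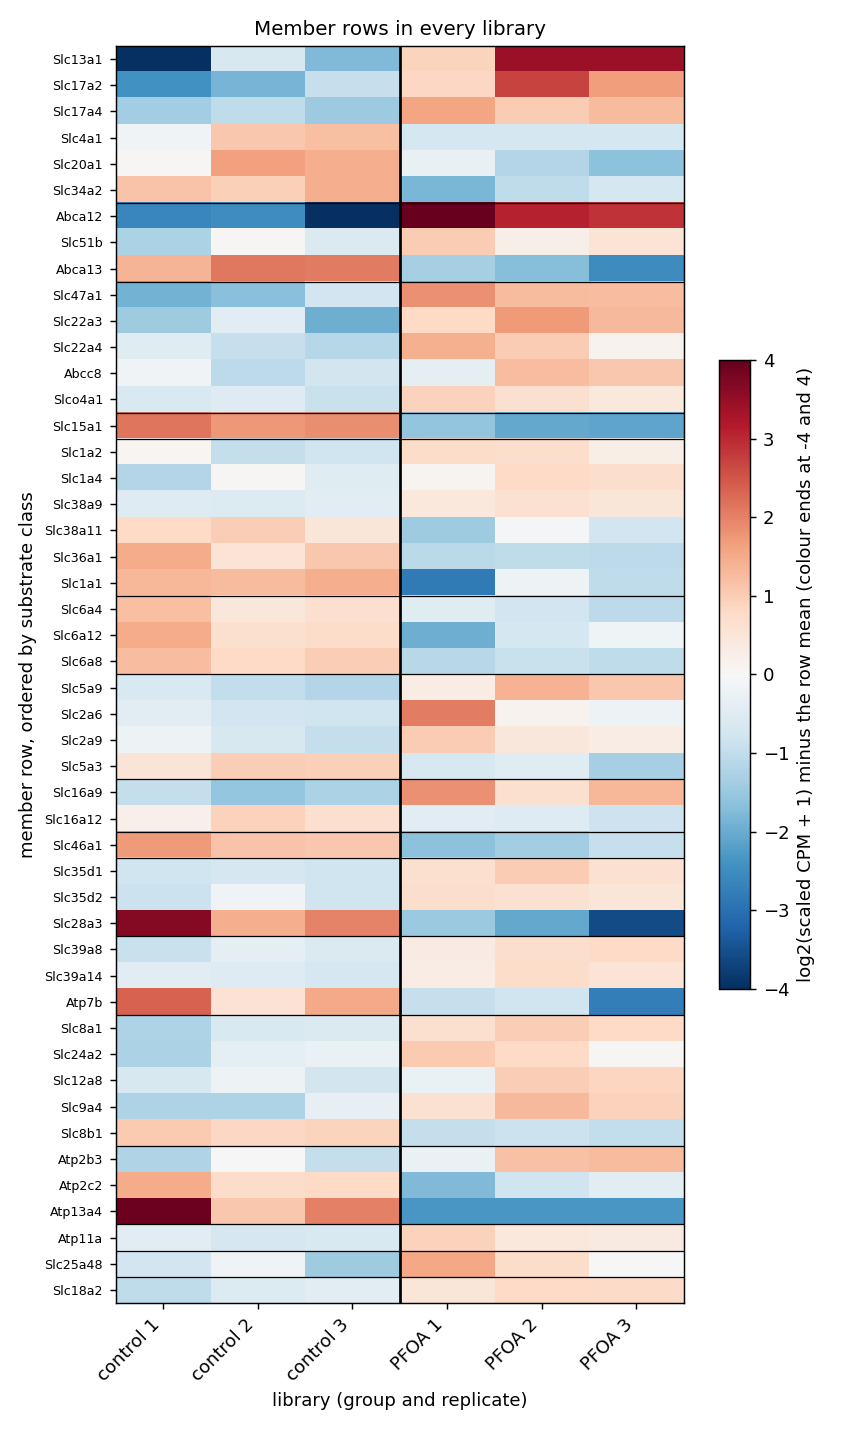
Scaled counts of 48 of the 49 rows in the 6 libraries, as log2(CPM + 1) minus the mean of the row, with black lines between substrate classes and colours that end at -4 and 4. Within the PFOA group the colours differ most for Slc13a1, Slc2a6 and Slc1a1, where replicate 1 stands apart.

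Libraries of one group were not alike across these rows. In the PFOA group, replicate 1 lay farthest from the other 2 libraries in 28 of the 47 tested rows, against 8 for replicate 2 and 10 for replicate 3. It was the highest of the PFOA libraries in 13 of the 28 and the lowest in 15. A distance over 2-fold was seen in 13 rows, 5 with more and 8 with less in PFOA replicate 1, from 2.09 for Slc2a6 to -2.57 for Slc13a1 on the log2 scale. In the control group, replicate 1 lay farthest in 27 rows, with a distance over 2-fold in 7, among them Slc13a1 at -4.19 and Atp13a4 at 2.36. Within a group the highest library exceeded the lowest by a median of 1.64 times in control and 1.73 times in PFOA. More than a 3-fold range was seen in 8 rows in control and 10 in PFOA. Rows with an empty library in the group, such as Slc17a2 in control and Slc28a3 in PFOA, entered neither these medians nor these counts. Most listed fat cell markers set PFOA replicate 2 apart from the others. Of 10 such genes 5 had a row, 3 were tested and all 3 were higher. The 5 rows summed to 13.1 to 56.6 CPM in control and 72.5 to 1030 in PFOA. Adipoq had 54, 0 and 150 counts over the PFOA libraries, Plin1 had 61, 0 and 128, Cfd had 225, 3 and 522, and Car3 had 417, 7 and 1099. Cidec was also lowest in PFOA replicate 2, at 366, 144 and 315 counts over the PFOA libraries. Every PFOA library of Cidec still lay above the controls, at 20, 49 and 18. The part of fat tissue in the carrier counts was not tested.

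**Figure D4:**
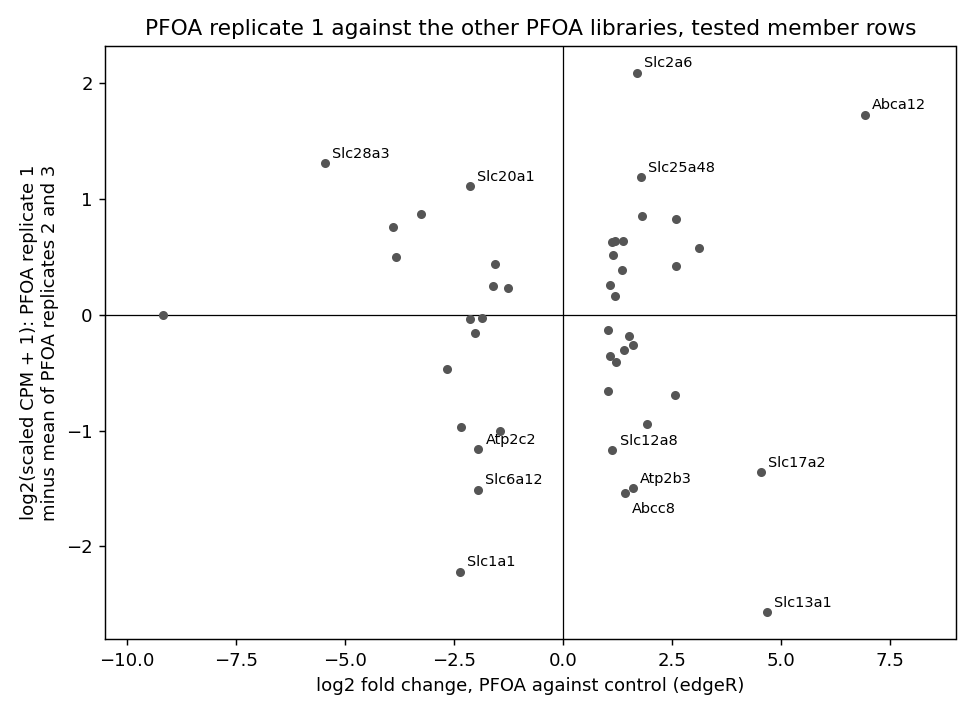
Distance of PFOA replicate 1 from the mean of PFOA replicates 2 and 3 (y axis, log2(CPM + 1) units) against the log2 fold change of PFOA against control (x axis) for 46 of the 47 tested rows; rows over 2-fold away are named. Slc2a6 and Abca12 are higher in PFOA replicate 1, and Slc13a1 and Slc1a1 lower.

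Proteins that work with these carriers were listed in small number. Of a list of 42 partners and regulators, 9 had a row, and 4 of the 8 tested were higher and 4 lower. Fxyd4, a small subunit that tunes the sodium-potassium pump, had 282, 191 and 207 reads in the controls against 0 in each PFOA library, at least 220.0-fold lower against the floor of 3 counts over the group. Fxyd2 and Fxyd6, of the same family, were 3.33-fold and 2.21-fold lower, and Car4 was 2.55-fold lower. Pdzk1, a scaffold for apical carriers, had 6, 7 and 4 reads in the controls against 0 in each PFOA library, too few for the test. Nkain1, which binds the sodium-potassium pump, was 3.42-fold higher, and Pln, which restrains the calcium pump of the muscle reticulum, was 2.44-fold higher. Car12, a carbonic anhydrase that supplies bicarbonate at the membrane, had 276, 549 and 317 reads in the controls against 8197, 3859 and 3582 with PFOA, 14.1-fold higher. Car1, a cytosolic relative, was 6.55-fold higher. Of a list of 25 nuclear receptors and other factors known to act on carrier genes, 7 had a row. Ppara, the fatty acid receptor that PFOA is known to activate, had 1708, 1643 and 1758 reads in the controls against 7039, 10115 and 9728 with PFOA, 5.42-fold higher. Pparg, Cdx2, Nr1h4 and Isx were 4.14-fold, 4.50-fold, 3.28-fold and 39.0-fold higher. Nr1i3, a xenobiotic receptor, was 5.92-fold lower, and Foxa2, a factor of endoderm, was 4.44-fold lower. These rows come from the same selected table, so that their moving with the carriers shows no link.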

How the data were processed

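RNA of 3 control and 3 PFOA colon libraries was prepared by SMARTER mRNA-Seq chemistry, according to the labels. The authors deposited raw read counts per gene row. Per the submitters' processing notes, reads were handled with HTSeq and HISAT2 on mm10, versions unstated. How loci were assembled, strand use, multi-mapping and the row selection: not given in the sources used here. Of the 49 rows, 33 carry identifiers of assembled loci, the spans of 18 overlap an antisense gene and those of 5 (Slc1a1, Slc22a3, Slc51b, Slc8a1 and the merged Slc5a3 row) another coding gene, and reads of such genes and of close relatives can be counted for each other.

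Rows were tested on the whole table of 2033 with edgeR 4.0.16 (R 4.3.3), after filterByExpr (1608 rows kept) and TMM scaling on the kept rows. The fit used glmQLFit and glmQLFTest without covariates, two-sided, with Benjamini-Hochberg over tested rows and a threshold of 0.05. The SE is the absolute log2 fold change divided by the square root of F. Sequencing depth is unknown, and a floor of 3 counts stands for a group at 0. The fitting step was tested on simulated data. Replicates correlated at 0.951 to 0.984, with a smallest chi-square per degree of freedom of 22.4, so no pair agreed within sampling noise. The alternatives were DESeq2 1.42.0, limma-voom (limma 3.58.1), other scalings and filters, the replicate number as a block, and each library left out in turn.

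Members, classes and lists were chosen with earlier results of these data known. Classes follow the gene family by name, so the substrate of a member can differ from that of its class, as for Abcc8 and Slc2a9. Rows are named by this rule: up to 3 per class with the smallest p, the 8 with the largest fold change each way, rows that lose their call or move over 1.5 times without 1 library, families with both directions, rows with an empty group, every partner and factor row, and up to 4 markers for each marker list given above. Lists of goblet, T and natural killer, myeloid, endothelial, and liver and pancreas markers also had rows, which are not given here. Slc20a1, Slc22a4, Slco4a1, Slc9a4, Slc30a10, Rbp2, Gcg, Adipoq and Plin1 were named after their values were seen. The values of 1 member are not reported here.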

Additional observations from a re-analysis of the deposited data

How the results depend on the processing

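None of the 47 tested transporter and pump rows changed direction under the 13 alternatives, and 580 of 611 combinations of a tested row and an alternative kept their call. The 31 lost calls belong to 9 rows, each given above. The like share over all tested rows was not counted row by row. Of the 1608 rows, 1601 were called with DESeq2, 1608 with RLE factors and 1582 with library totals alone. Limma-voom called 1587 of them and the replicate number as a block 1579. Without control replicate 3, 1531 of 1697 rows were called. The number of rows called higher was 28 to 30 under the alternatives that keep all libraries and 22 to 27 without 1 library, and the number called lower was 18 to 19 in every alternative. Over the whole table, 804 of 1608 tested rows were called higher and 804 lower in the main fit. These counts were 721 and 810 of 1697 without control replicate 3, and 760 and 817 of 1699 without control replicate 1. With the replicate number as a block (replicate block), 28 rows were higher and 18 lower. Same-numbered libraries deviated together weakly, at r = 0.114, -0.0306 and 0.102, so the numbers were not taken as pairs. The median log2 fold change of carriers of organic cations, anions and drugs moved from 1.88 to 1.65 with library totals alone and lay between 1.65 and 2.08 without 1 library. That of ion exchangers lay between 0.94 and 1.36 and that of sugar carriers between 0.76 and 1.63 without 1 library. The causes were not tested. Library totals alone shifted the median of all rows by -0.20 on the log2 scale. The bound for Atp13a4 lay between 30.1-fold and 94.6-fold with each control library dropped in turn, an alternative chosen after seeing the data. Low counts limit Slc4a1, Slc9a4, Slc17a2, Slc24a2 and Slc25a48. They also limit the folds of rows low in a single group. Such rows include Slc47a1 in control, and Slc6a12, Atp7b, Slc28a3, Abca13 and Atp13a4 in PFOA.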
